A study of Mus musculus with 8 samples.

Results

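JM12 is a pool of paired-end tags (PETs) from RNA polymerase II (Pol II) ChIA-PET on mouse liver, and its ends were described here across protein-coding genes. Its members are the rows of the deposited table that name JM12 and have no end on the mitochondrial chromosome, with near-copies within 10 bp at both ends counted once. This gave 837085 PETs of 2741005 in the whole series. The JM12 libraries are 2, 1 from ZT06 (the middle of the day) and 1 from ZT18 (the middle of the night), where ZT counts the hours after lights on. All livers came from wild-type C57BL/6 mice of 3 to 6 months in a cycle of 12 h light and 12 h dark, with free access to food. Chromatin of 3 to 7 livers was combined for each library and precipitated with 65 µg of the Pol II antibody 8WG16. JM12 was crosslinked with 1% formaldehyde and 1.5 mM EGS, a crosslinker that joins proteins, as was JM08 (4 libraries, 465097 PETs). JM11 (2 libraries, 1438823 PETs) had 1% formaldehyde alone. JM08 and JM11 also held equal numbers of ZT06 and ZT18 libraries. The table names the experiment of a PET but not its library, so JM12 is 1 pool, day cannot be set against night, and no test between conditions was possible. The 95% intervals given are exact and cover counting error only. Between JM12 and JM11, the crosslinking and the experiment cannot be told apart.

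In ChIA-PET, crosslinked chromatin is precipitated with an antibody, DNA ends held in a complex are ligated through a linker, and a short tag is read from either side. A PET with both ends close together on a chromosome can come from a single fragment, a PET between distant sites of a chromosome can record a contact, and PETs between chromosomes include chance ligations. The antibody 8WG16 binds the repeated tail of the largest Pol II subunit, mainly in its unphosphorylated form, which is known to be abundant at gene starts. Hepatocytes make up most of the liver's mass and transcribe genes for plasma proteins, the urea cycle, and the making and use of glucose, fat and bile acids at high rates.

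The promoters of 6 genes that return below are given first, because their PET ends carry the main patterns. Each sequence runs 5′ to 3′ on the gene's strand, from 250 bases before a start to 50 after it (RefSeq, GRCm38), and capitals mark CG dinucleotides and TATAAA on either strand. Alb (albumin; chr5:90460620-90460919, plus strand) and Errfi1 (an inhibitor of the EGF receptor; chr4:150854820-150855119, plus strand) were among the genes densest in ends, with 10 and 17 JM12 ends inside these windows. Alas1 (the first enzyme of haem synthesis, chr9:106247905-106248204, minus strand) held an end of a PET whose other end lay 1070 bp before the start of Dusp7. Itih4 (a plasma protease inhibitor heavy chain; chr14:30886226-30886525, plus strand) held an end of a PET to Itih1. Zyx (zyxin, of focal adhesions; chr6:42349578-42349877, plus strand) and Epha1 (an ephrin receptor; chr6:42373219-42373518, minus strand) were joined by 2 PETs, with an end of one of them in the Zyx window and an end of the other in the Epha1 window.
Alb: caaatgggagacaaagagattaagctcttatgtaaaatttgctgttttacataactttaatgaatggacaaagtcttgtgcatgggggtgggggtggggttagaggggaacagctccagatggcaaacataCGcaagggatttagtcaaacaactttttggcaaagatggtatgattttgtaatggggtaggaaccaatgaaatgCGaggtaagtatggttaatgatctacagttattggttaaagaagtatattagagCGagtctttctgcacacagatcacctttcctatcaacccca
Errfi1: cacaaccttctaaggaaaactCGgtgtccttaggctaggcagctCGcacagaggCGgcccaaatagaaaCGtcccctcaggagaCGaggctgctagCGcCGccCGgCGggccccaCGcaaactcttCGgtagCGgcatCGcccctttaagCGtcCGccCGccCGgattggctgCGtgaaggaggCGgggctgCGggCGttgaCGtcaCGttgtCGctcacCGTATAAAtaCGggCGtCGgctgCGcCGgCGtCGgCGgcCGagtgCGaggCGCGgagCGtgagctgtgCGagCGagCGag
Alas1: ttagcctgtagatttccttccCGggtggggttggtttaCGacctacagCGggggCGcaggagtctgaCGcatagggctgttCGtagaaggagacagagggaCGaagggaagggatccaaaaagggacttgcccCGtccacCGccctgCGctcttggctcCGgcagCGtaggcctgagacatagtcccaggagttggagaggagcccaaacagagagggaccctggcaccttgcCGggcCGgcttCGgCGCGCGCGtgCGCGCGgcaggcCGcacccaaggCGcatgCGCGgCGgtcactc
Itih4: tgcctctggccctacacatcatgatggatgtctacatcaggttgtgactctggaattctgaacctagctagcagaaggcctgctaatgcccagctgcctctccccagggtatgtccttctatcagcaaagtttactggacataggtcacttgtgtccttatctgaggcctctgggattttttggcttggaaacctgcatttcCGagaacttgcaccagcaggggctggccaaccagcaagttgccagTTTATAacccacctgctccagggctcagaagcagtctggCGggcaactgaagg
Zyx: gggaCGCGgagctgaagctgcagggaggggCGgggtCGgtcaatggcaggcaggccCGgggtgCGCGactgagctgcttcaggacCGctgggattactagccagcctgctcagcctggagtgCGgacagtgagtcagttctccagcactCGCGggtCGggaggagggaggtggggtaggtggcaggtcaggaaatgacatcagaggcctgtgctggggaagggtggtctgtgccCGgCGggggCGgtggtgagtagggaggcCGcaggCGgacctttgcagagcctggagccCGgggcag
Epha1: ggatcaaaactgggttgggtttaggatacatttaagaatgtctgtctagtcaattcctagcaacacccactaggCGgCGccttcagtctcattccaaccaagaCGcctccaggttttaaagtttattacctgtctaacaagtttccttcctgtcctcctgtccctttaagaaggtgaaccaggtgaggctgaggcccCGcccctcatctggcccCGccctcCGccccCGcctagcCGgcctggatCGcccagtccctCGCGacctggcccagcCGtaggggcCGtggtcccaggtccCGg
The Alb window held 3 CG dinucleotides and the Errfi1 window 41, so these printed windows were of unlike base composition. Another RefSeq start of Errfi1, not printed, had 2 CG dinucleotides and 5 JM12 ends in its window. Among the printed windows TATAAA, the core of the TATA box, was found in those of Errfi1 and Itih4 and in none of the other 4.

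Most JM12 PETs joined different chromosomes, and few lay in the distance range of contacts around a gene. Of the 837085 PETs, 671498 joined different chromosomes (80.2%, interval 80.1 to 80.3) and 123531 had both ends within 8 kb (14.8%, 14.7 to 14.8), at a median distance of 0.230 kb. PETs of 8 to 100 kb, called short-range below, numbered 1964 (0.235%, 0.224 to 0.245). PETs of 100 kb to 2 Mb, called mid-range, numbered 2225 (0.266%, 0.255 to 0.277). Another 37867 PETs (4.52%) were farther apart on a chromosome. Relative to its PETs within 8 kb, JM12 held more short-range PETs than either other pool: 15.9 per 1000, against 6.65 in JM08 and 4.43 in JM11. Its mid-range PETs lay between the pools at 18.01 per 1000, against 7.64 in JM08 and 26.3 in JM11. That order depends on the denominator: as a share of all PETs, mid-range PETs were 0.266% in JM12, 0.172% in JM08 (0.160 to 0.184) and 0.164% in JM11 (0.157 to 0.171), so JM12 was the highest. Short-range PETs were also the highest in JM12 on this scale, at 0.235% against 0.150% and 0.0276%. Between 20 and 50 kb there were 5.85 JM12 PETs per 1000 within 8 kb, against 2.48 and 1.38. Between 1000 and 2000 kb JM12 gave 5.90 per 1000, JM08 3.01 and JM11 12.8. The median distance of mid-range PETs was shorter in JM12 (593 kb) than in JM08 (785 kb) or JM11 (962 kb).

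Ends were counted over each gene and 2.5 kb either side and divided by the length and by the mean of the pool over autosomes and X (0.651 ends per kb in JM12), which gives a relative density of 1 at the mean. Of 21631 genes, 18677 were long enough to expect at least 5 JM12 ends at that mean, which a span of 7.68 kb reaches, and 2954 were shorter. Their median relative density was 1.39, and 4346 (23.3%) stood at least 2-fold over the mean while 1708 (9.14%) stood at or under 0.5. The genes on each side of the 2-fold line had 2.00021 and 1.99992. The top of the distribution lay between the other pools: the 99th percentile was 6.14 in JM12, 15.01 in JM08 and 3.19 in JM11, and 37, 436 and 7 genes reached 10-fold. Gene spans cover 41.9% of the length and held 54.2% of JM12 ends, against 55.2% in JM08 and 48.5% in JM11. Genes over the 2-fold line lay in regions richer in genes. Within 500 kb of their midpoints lay a median of 23 lower-coordinate gene boundaries, usually with the gene's own. The count was 15 for all genes and 14 for those at or under 0.5. The 785 genes of the X chromosome had a median of 0.529 and the autosomal genes 1.42. All values are sums over the cells of the livers, in which fewer cells of a type and fewer ends per cell cannot be told apart.

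Of the 20 genes densest in JM12 ends 19 are described here, and they included 6 of plasma proteins, and others of metabolism and of fast-responding regulators. The highest value belonged to Sfi1, which codes for a centrosome protein. Sfi1 (chr11:3131850-3203347) held 1314 ends at a relative density of 26.4 (24.98 to 27.9), with 20.5 in JM08 and 27.5 in JM11. It ranked first in JM12 and JM11 but 106th in JM08, and its ends were spread out, with 4.26% of them in its densest 1 kb. Whether repeated sequence or extra copies of the region contribute to this value was not tested. Errfi1, whose promoter is printed above, had 250 ends at 19.1 (16.8 to 21.6), against 97.3 in JM08 and 11.1 in JM11. Errfi1 was thus higher in JM08 and lower in JM11, with intervals apart, and Sfi1 did not follow that order.

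Plasma protein genes filled many of the next places. Apoa5, an apolipoprotein that governs plasma triglycerides, had a relative density of 17.6 (14.2 to 21.5). Alb had 202 ends at 14.97 (12.97 to 17.2), against 99.1 in JM08 and 8.75 in JM11. Fgg, the gamma chain of fibrinogen, had 14.2 (11.7 to 17.1), against 52.9 in JM08 and 5.80 in JM11. Apoc1, Apoa2 and Apoe, which code for lipoprotein components, stood at 13.7, 12.7 and 12.7. Enzymes and carriers of metabolism were next: Fabp1, the liver's fatty acid binding protein, stood at 14.8, Alas1 at 14.8 (12.8 to 17.1), Tat (tyrosine breakdown) at 14.7, Gnmt (glycine methylation) at 14.4, Car3 (a carbonic anhydrase) at 13.9 and Ppp1r3b, which directs a phosphatase to glycogen, at 12.5. Among fast-responding regulators, Dusp1 (a MAP kinase phosphatase) stood at 13.8, Pim3 (a kinase) at 12.96 and Xbp1 (a factor of the unfolded protein response) at 11.6. Ptms (parathymosin, 15.2) and Clec2d (a lectin-like receptor, 14.3) completed the 19. Jund (an AP-1 subunit) stood at 16.0 but is left out of them, because most of its span is shared with Iqcn, which held more ends. In JM08 18 of the 19 had a higher relative density than in JM12, and in JM11 18 of the 19 had a lower one. Sfi1 was the exception in both comparisons.

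**Figure D1:**
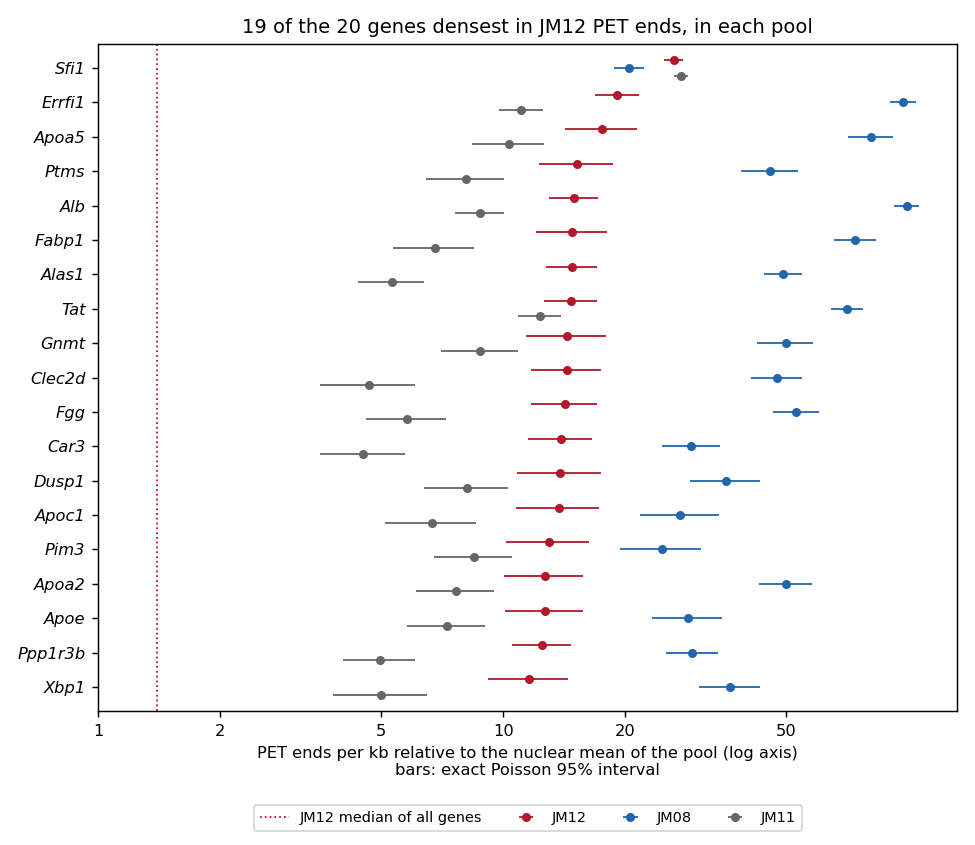
Relative density of PET ends (ends per kb over the mean of the pool, log axis) at 19 of the 20 genes densest in JM12, with exact Poisson 95% intervals; each colour is a pool and the dotted line is the JM12 median of all genes. At Alb the pools read 14.97 in JM12, 99.1 in JM08 and 8.75 in JM11, and Sfi1 alone has its lowest value in JM08.

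The 100 densest JM12 genes overlapped those of both other pools by most of their number: 66 were among the 100 densest of JM08 and 68 among those of JM11. Their median was 9.07 in JM12, 24.2 in JM08 and 4.59 in JM11. Across genes, which are not independent replicates and share the length by which they were divided, Spearman's rho was 0.721 between JM12 and JM08 and 0.549 between JM12 and JM11. PETs within 8 kb supplied a larger part of the ends at the 100 densest genes (median 28.9%) than at all genes (15.8%). Counted by ends alone, without regard to length, 9 of the 10 leading genes had spans of 1533 to 2276 kb and lay near the mean density, and the other was Sfi1. Ptprd, a receptor phosphatase of synapses, held 1389 ends at a relative density of 0.94. Lsamp, a neural adhesion protein, held 1382 at 0.96, and Lrp1b, a large lipoprotein receptor relative, held 1068 at 0.80.

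Marker genes were set beside the tissue label. Their lists were chosen with earlier results of these data known, so this is not an independent check. Of the 10 hepatocyte markers, 9 passed the length minimum and 8 of them stood at or over 2-fold, against 23.3% of all genes, with a median of 10.5 against 1.39. Alb, Ttr (transthyretin, 10.5) and Fgb (fibrinogen beta, 9.98) were among the 8. Serpina1a stood at 0.902, against 4.87 in JM08 and 0.292 in JM11. It belongs to a cluster of near-identical genes, among which reads may be hard to place, and whether this lowers its value was not tested. Of 19 markers of endothelial, stellate, Kupffer and bile duct cells that passed, 3 stood over 2-fold and the median was 1.59. These 3 were Sox9 (a bile duct regulator, 4.51), Lyve1 (a sinusoidal endothelial receptor, 2.21) and Des (desmin of stellate cells, 2.20), and the lowest was the Kupffer cell receptor Adgre1 at 0.567. Of 17 markers of neurons, muscle and other tissues that passed, 1 stood over 2-fold (Sftpc, a lung surfactant protein, 3.40), and the median was 1.38, at the level of all genes. The 2.5 kb added beside Sftpc overlap its neighbour Bmp1 (2.61), and how the ends divide between these genes was not tested.

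The genes of amino acid breakdown and of plasma proteins were among the densest groups. In the list of the urea cycle and amino acid catabolism, 27 of 30 genes stood over 2-fold, with a median of 4.05 in JM12, 10.1 in JM08 and 2.21 in JM11. Behind Tat and Gnmt came Gpt (alanine transaminase, 11.4) and Ass1 (argininosuccinate synthase of the urea cycle, 7.96), and the lowest was Otc, the X-linked ornithine transcarbamylase, at 0.708. Of 37 plasma protein genes that passed, 27 stood over 2-fold with a median of 3.75, against 10.6 in JM08 and 1.90 in JM11. Complement and coagulation genes were less dense, with 16 of 29 over 2-fold and a median of 2.17. They were led by C3, the central complement component, at 6.43, then Serpinf2 (plasmin inhibitor, 4.45), C8g (4.35) and F12 (clotting factor XII, 3.55). C1ra was at 0.291, an uncertain value because a near-identical copy exists.

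Genes of glucose and fat metabolism also stood high. In gluconeogenesis and glucose use, 13 of 18 genes stood over 2-fold with a median of 3.62. Besides Ppp1r3b they included Pck1 (a rate-setting enzyme of gluconeogenesis, 8.09) and Ppp1r3c (glycogen targeting, 6.53), and the lowest was Pfkfb1 at 0.925. Among genes of fatty acid and cholesterol synthesis, 22 of 28 stood over 2-fold with a median of 3.28, and the lowest, Cyp51, was at 1.38. Insig1, a brake on sterol synthesis, stood at 11.3 (9.07 to 13.9), Fasn (fatty acid synthase) at 10.98, Scd1 (stearoyl-CoA desaturase) at 10.6 and Thrsp (a lipogenic regulator) at 8.47. Fatty acid oxidation and fasting genes were lower as a group, with 10 of 22 over 2-fold and a median of 1.98. Of these, Fabp1 stood highest, with Ppara (the fasting receptor, 3.69) and Acadvl (3.60) also over 2-fold. In bile acid synthesis and transport 12 of 19 stood over 2-fold with a median of 2.28, led by Hsd3b7 (7.12) of bile acid synthesis and followed by Amacr (3.87) and the uptake carrier Slc10a1 (3.74). Of cytochrome P450 and conjugation genes 18 of 32 stood over 2-fold with a median of 2.42. Behind Alas1 stood Ugt1a1 (bilirubin conjugation, 8.36), Cyp2e1 (8.36) and Ces3a (8.29), while Cyp2a5 at 0.119 and, among the oxidation genes, Cyp4a10 at 0.377 have near-identical relatives and are uncertain.

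Regulators showed a wide range. Of 22 clock genes 13 stood over 2-fold, with a median of 2.57, and Dbp, a clock output factor, led with 7.75 (5.77 to 10.2), against 40.8 in JM08 and 4.78 in JM11. It was followed by Bhlhe40 (a clock repressor, 6.53), Nr1d1 (REV-ERB alpha, 4.44) and Tef (3.84), and the lowest was Clock itself at 0.930. Of 22 rhythmic output genes 10 stood over 2-fold with a median of 1.88, among them Elovl3 (fatty acid elongation) at 10.3 and Pnpla2 (a lipase) at 3.93. Since PETs from ZT06 and ZT18 are mixed, these values are sums over both times. Of 20 hepatocyte lineage factors 14 stood over 2-fold with a median of 2.84, led by Nr2f6 (9.21), Foxa3 (7.05), Foxa2 (6.08) and Onecut1 (5.40). The other 3 members, Cebpa, Cebpb and Cebpd, fell under the length minimum and are not in that count. Among nuclear receptors for metabolites and hormones, 9 of 20 stood over 2-fold with a median of 1.86. Nr1i3, the xenobiotic receptor CAR, stood at 5.27, and Rxra, the partner of many of these receptors, also at 5.27 with 315 ends. Rxra read 4.36 in JM08 and 1.29 in JM11, so that its value was highest in JM12. No interval for its ratio to JM08 is given here, so no difference beyond counting error is claimed. Of 23 genes of the growth hormone, insulin and IGF axis 13 stood over 2-fold with a median of 2.36, where Errfi1, Bcl6 (6.77), Igfbp4 (6.44) and Igfals (5.03) led.

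Short, broadly used genes stood over the mean as well. Of 19 immediate-early and stress genes that passed, 15 stood over 2-fold with a median of 4.00, and 11 others, such as Zfp36 and Atf4, were too short. Jun (8.63) and Klf10 (7.98) followed Jund and Dusp1. Of 19 heat-shock and cold-inducible genes 16 stood over 2-fold with a median of 3.60, led by the chaperones Hspa5 (9.93), Hsp90ab1 (9.67), Calr (8.58) and Hspa8 (7.74). Cytosolic ribosomal protein genes had 28 of 30 over 2-fold and a median of 3.20, led by Rpl13a at 8.64, with 10 others too short. Nuclear genes of oxidative phosphorylation had 27 of 37 over 2-fold and a median of 2.40, led by Ndufs7 (6.05). In contrast, of 19 long genes of the nervous system none stood over 2-fold, and their median was 0.928. These lists differ in length. Median spans were 9.06 kb for ribosomal protein, 10.5 for immediate-early, 11.8 for heat-shock and 12.7 for oxidative phosphorylation genes. For all genes the median was 27.2 kb, and for the long genes 1617 kb. Length was not held fixed, and whether it accounts for the contrast was not tested. Of the 21 lists, 19 had a median above that of all genes. The exceptions were the markers of other tissues and the long genes of the nervous system.

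**Figure D2:**
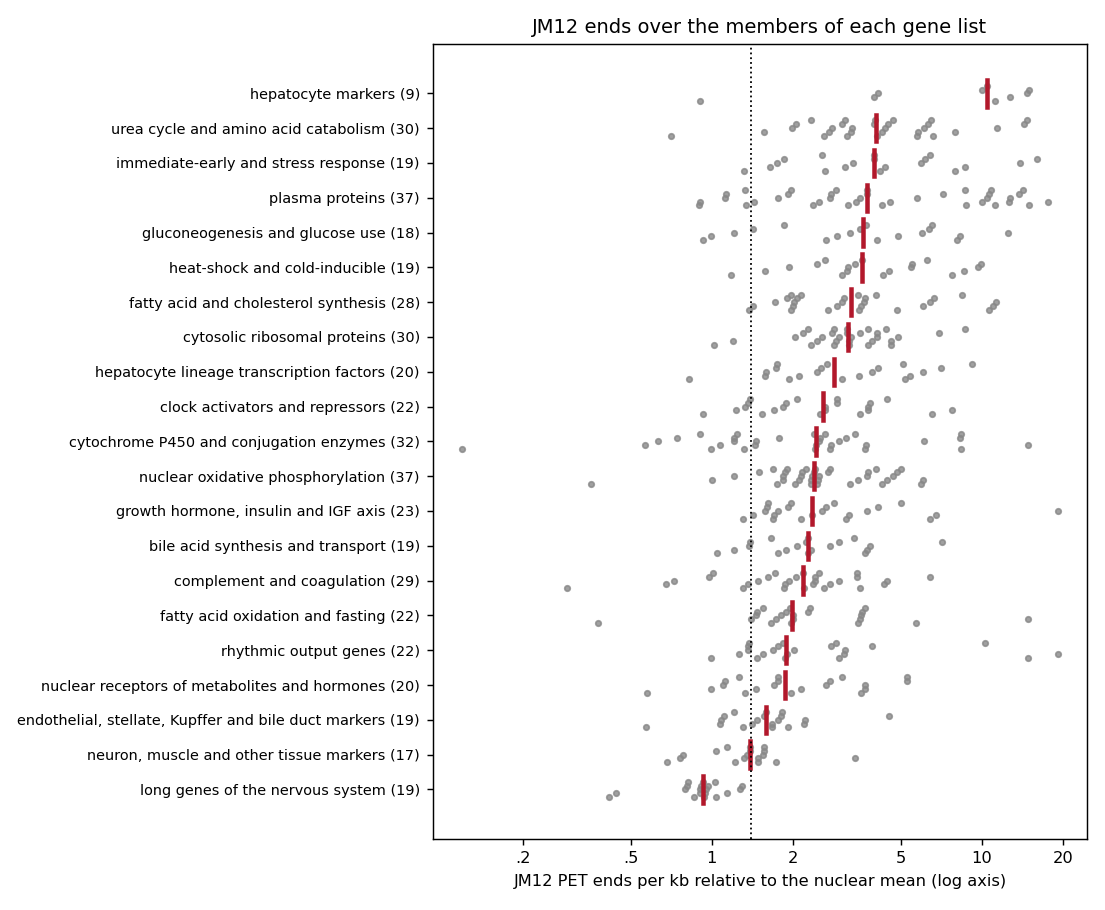
JM12 relative density (log axis) of each member that passed the length minimum, by gene list, with the number of members in parentheses; red bars are list medians and the dotted line is the median of all genes, 1.39. Medians run from 10.5 for hepatocyte markers to 0.928 for long genes of the nervous system.

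JM12 ends gathered at gene starts. Over 3317 genes of at least 20 kb with no other gene boundary within 10 kb of their start or end, the density within 1 kb of the start was 3.50 times the pool's mean (3.44 to 3.55), and within 1 kb of the gene end 1.21 times (1.18 to 1.25). The same windows gave 5.71 and 1.09 in JM08, and 1.958 and 1.13 in JM11. At starts JM12 thus stood between the other pools with intervals apart, while at gene ends it was the highest of the 3.

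**Figure D3:**
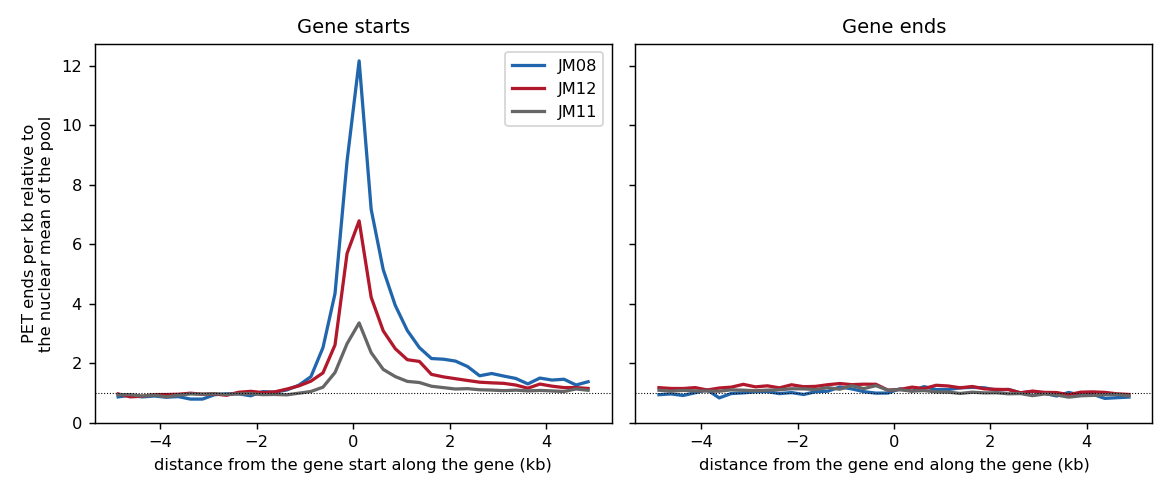
PET ends per kb relative to the mean of the pool along 3317 isolated genes, by distance from the gene start (left) and the gene end (right); lines are pools and the dotted line is the mean. Within 1 kb of the start the values are 3.50 in JM12, 5.71 in JM08 and 1.958 in JM11.

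Promoter sequence was compared for genes found in the RefSeq table. Of the 100 densest JM12 genes 75 were matched, with 97 promoters. TATAAA stood in the last 50 bases before the start in 7.22% of these, in 1.93% of promoters of all genes over 2-fold, in 2.49% of 18563 promoters of all genes that passed, and in 5.14% of promoters of genes at or under 0.5. Found anywhere in the 300-base window on either strand, it was in 17.5%, 6.97%, 9.84% and 18.2%. The median number of CG dinucleotides was 15 for the 100 densest, 20 for genes over 2-fold, 15 for all and 3 for genes at or under 0.5. The genes over 2-fold thus had promoters richer in CG. TATAAA was more frequent at the 100 densest than at all genes, but so it was at genes at or under 0.5. The 7.22% rests on 7 promoters. These are matches of letters only.

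Genes were then compared between JM12 and JM08, which shared the crosslinking, by the ratio of their relative densities. Among 12864 genes with at least 30 ends in both pools together, JM12 was at least 2-fold higher for 571 (4.44%; 480 with an interval above 1) and at least 2-fold lower for 1413 (11%; 1395 with an interval below 1). The median ratio was 0.979. With the median gene as the reference of each pool the counts were 315 higher and 2097 lower, so the share of higher among all calls was 13.1% against 28.8%. The genes lower in JM12 were dense in both pools, with medians of 2.84 in JM12 and 7.62 in JM08. Those higher in JM12 were sparse in JM08, with medians of 1.66 and 0.675. Grouped by JM12 density, the median ratio was 0.899 for 1527 genes under 1, 1.12 for 7338 from 1 to 2, 0.778 for 3169 from 2 to 4, 0.539 for 710 from 4 to 8 and 0.384 for 120 at 8 or more. The low ratios were thus not limited to a few genes: they were found among dense genes generally. JM12's density enters both the grouping and the ratio, so these medians are a description.

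The lowest ratios included genes of hepatocyte metabolism and secretion. Pck1 had 59 JM12 ends at 8.09 and 405 JM08 ends at 99.99, a ratio of 0.081 (0.061 to 0.107), and JM11 read 20.7 for it. Pck1 was thus lower in JM12 than in both other pools. Apon, an apolipoprotein, also had a ratio of 0.081 (0.028 to 0.193), on 6 JM12 ends. Igfbp1, an IGF binding protein induced by fasting, had 0.109 (0.047 to 0.225), and Serpina3k, a plasma protease inhibitor, had 8.78 in JM12 and 79.0 in JM08, a ratio of 0.111 (0.085 to 0.144). Fam32a (0.091), Serpina1e (0.118), Selenbp2 (0.123) and the gap junction gene Gjb1 (0.128) made up the 8 lowest, and Serpina1e and Selenbp2 have near-identical copies. The 8 highest ratios rested on few JM08 ends and were imprecise. Slc25a37, the mitochondrial iron carrier, had 28 JM12 ends and 2 JM08 ends, a ratio of 7.78 (1.961 to 67.4). Wnt4, a signalling ligand, had 44 and 4 ends, a ratio of 6.11 (2.22 to 23.4). The others were Il17ra (6.67), Pde1b (6.30), Racgap1 (6.11), Nxpe5 (5.74), Myl12a (5.55) and Asrgl1 (5.37).

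By list, all 9 hepatocyte markers compared were at least 2-fold lower in JM12 than in JM08, against 11% of all genes. So were 31 of 36 plasma protein genes, 23 of 30 of the urea cycle and amino acid list and 13 of 18 of gluconeogenesis. So were 13 of 17 heat-shock and cold-inducible genes and 10 of 18 immediate-early and stress genes. Lists denser in JM12 mostly had larger shares, but not in every case. At medians of 3.28 and 2.57, lipid synthesis had 6 of 28 and clock genes 3 of 21. At 3.20 and 2.42, ribosomal protein genes had 13 of 24 and P450 and conjugation genes 16 of 26. Bile acid genes had 10 of 19, complement and coagulation genes 11 of 27 and nuclear receptors 2 of 19. JM12's density enters both the list median and the share. The long genes of the nervous system had 0 of 19. Some lists share genes, such as Alb of the hepatocyte markers and the plasma proteins, so the list counts are not separate.

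Against JM11, JM12 was at least 2-fold higher for 2171 of 15034 genes (14.4%; 2130 with an interval above 1) and at least 2-fold lower for 98 (0.652%; 62 with an interval below 1). The median ratio was 1.28, and with ratios centred on that median the counts were 805 higher and 400 lower. The share of higher among all calls fell from 95.7% to 66.8% by this centring, and was 77.6% (1012 higher, 292 lower) when the median gene was the reference of each pool. With ends of PETs within 8 kb only, which reach the 30-end minimum at fewer genes, the counts were 202 and 174. The median ratio was 0.806 for genes with a JM12 density under 1, then 1.20, 1.85 and 2.23 in the next groups, and 2.05 at 8 or more. Genes were also grouped by the number of lower-coordinate gene boundaries within 500 kb of their midpoint, their own included where it lay that near. By this count the median ratio was 1.06 at under 10, 1.26 at 10 to 19 and 1.55 at 20 or more. The same groups gave 1.03, 1.03 and 0.836 against JM08. Far from genes, at least 10 kb from any coding gene, JM12 density did not follow gene number in the surrounding megabase (0.768, 0.852, 0.845 and 0.764 from under 5 genes to 20 or more). JM11 fell there from 0.960 to 0.703. The higher genes had a median of 20 CG dinucleotides in their promoters and the lower ones 4, against 18 for all compared.

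The 8 genes highest over JM11 had spans of 8.05 to 22.7 kb. C4b, a complement component, had 26 JM12 ends and 4 JM11 ends, a ratio of 11.2 (3.88 to 44.1), but has a near-identical neighbour. Rce1, a protease for prenylated proteins, had 5.91 in JM12 and a ratio of 8.88 (3.65 to 26.0), and Snx33, a sorting nexin, had 3.69 and a ratio of 8.38 (3.86 to 20.8). Cdpf1 (6.88), Nucb1 (6.88), Cyp26a1 (retinoic acid breakdown, 6.23), Gnb2 (a G protein subunit, 6.19) and Paf1 (of the Pol II elongation complex PAF, 6.11) followed. The 8 lowest rested on 5 to 13 JM12 ends, with intervals reaching up to 0.782, and included several genes known from other tissues. They were Akr1c18 (0.267; 0.102 to 0.597), Dsg1b of skin (0.287), Kel of red cells (0.293), Il5ra of eosinophils (0.298), Vmn2r57 of the vomeronasal organ (0.303), Tmem47 (0.309), Tsen15 (0.322) and Cylc2 of sperm (0.331). By list, 16 of 28 lipid synthesis genes, 12 of 33 plasma protein genes and 11 of 30 urea cycle and amino acid genes were at least 2-fold higher than in JM11, against 14.4% of all genes. So were 8 of 18 immediate-early and stress genes, 8 of 19 nuclear receptors and 8 of 20 fatty acid oxidation and fasting genes. Of 8 hepatocyte markers 3 were, of 17 heat-shock and cold-inducible genes 2, and of 19 long genes of the nervous system none. The comparisons with JM08 and with JM11 share the JM12 values.

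**Figure D4:**
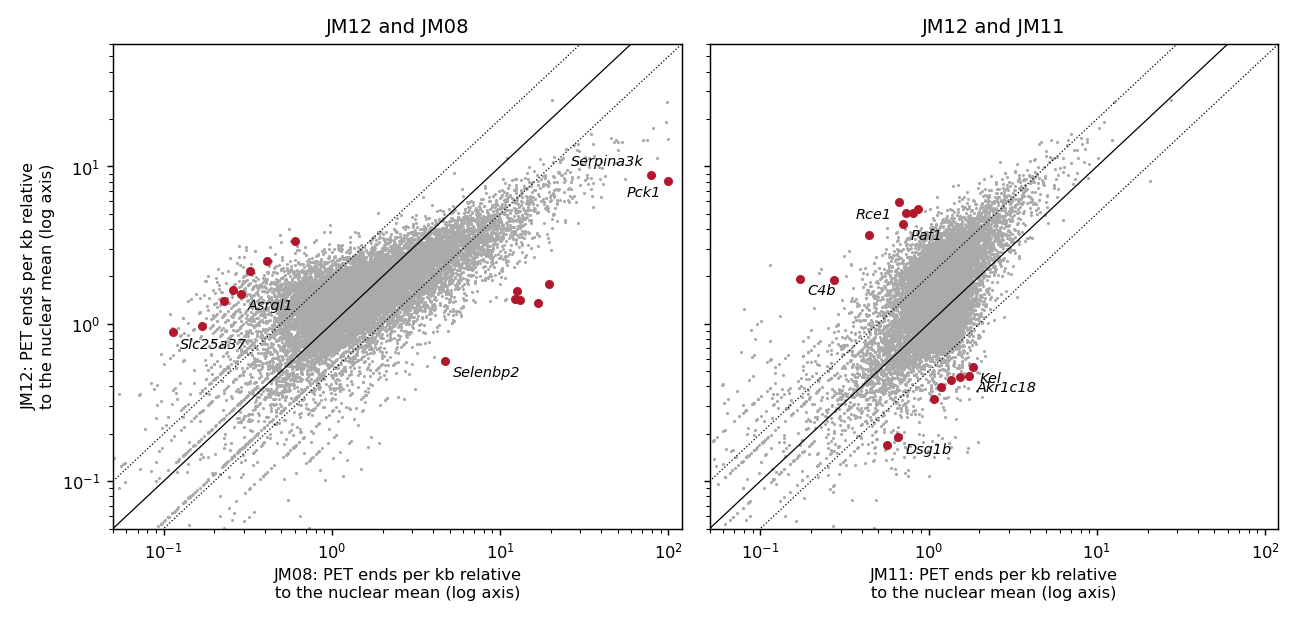
JM12 relative density against that of JM08 (left) and JM11 (right) on log axes, 1 grey point for each gene that passed the length minimum and had an end in both pools; red points are the 8 highest and 8 lowest ratios, the solid line marks equal values and the dotted lines 2-fold differences. Pck1, at 8.09 in JM12 and 99.99 in JM08, lies far under the lower line on the left.

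The short-range PETs of JM12 stayed mostly with genes. Both ends lay in the same gene span for 752 of 1964 (38.3%, 36.1 to 40.5), in spans of different genes for 467 (23.8%, 21.9 to 25.7), in a gene and intergenic DNA for 450 (22.9%) and outside genes for 295 (15.02%). Of their ends 73.5% were in gene spans, against 54.2% of all JM12 ends. Within 1 kb of a gene start lay 16.3% of their ends (15.1 to 17.5), against 5.34% of all JM12 ends. In JM08 these shares were 19.1% and 9.31%, and in JM11 6.42% and 3.01%. Short-range PETs touched 2093 of 21887 genes (9.56%), 303 genes at least 2 times (1.38%) and 64 at least 3 times. Genes touched at least once had a median relative density of 1.92 and genes touched at least 2 times 2.35, so denser genes were touched more. Whether density alone gives these numbers was not tested.

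Hepatocyte markers, nuclear receptors and genes of rhythmic output and gluconeogenesis were touched often. The hepatocyte markers had the highest share of the lists, with 5 of 10 (50%). Of 20 nuclear receptor genes 9 held an end of a short-range PET (45.0%, against 9.56% of all genes), and 5 held at least 2. Of 22 rhythmic output genes 10 did (45.5%), as did 8 of 18 gluconeogenesis genes (44.4%), 9 of 22 clock genes (40.9%) and 12 of 30 urea cycle and amino acid genes (40.0%). Ribosomal protein genes, dense but short, had 4 of 40 (10.0%), and long genes of the nervous system 1 of 19 (5.26%). The counts grow with both density and length of a gene, and neither was held fixed.

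Single genes with several short-range PETs included regulators of liver metabolism. Mtss1, which codes for a protein that bends membranes, had 7, all within the gene, against 1 in JM08 and 0 in JM11. Rxra had 6, against 1 and 0. Of these, 4 ran from intergenic DNA at 4 sites, chr2:27583264, 27599580, 27600259 and 27626778, to points 995, 2724, 2562 and 1086 bp before a RefSeq start of Rxra. Their distances were 92.9, 74.9, 74.4 and 49.3 kb, and both linker sequences of the pool were among them. These 4 PETs counted for Rxra only through the 2.5 kb added before the gene, so the counting rule set how near its start they ended. The other 2 lay inside the gene and alone would count without that flank. Hnf4a, the hepatocyte master regulator, had 5 within its span (2 in JM08 and 0 in JM11), running from 14.5 to 36.1 kb, and 1 of them began 584 bp after a start. Ppara had 4, of which 3 lay inside the gene and 1 reached it from upstream.

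Other genes joined their starts to their own interior or to neighbours. Pcx, the pyruvate carboxylase that feeds gluconeogenesis, had 2 PETs whose left ends lay 36 and 145 bp after a start and whose right ends lay 31.9 and 38.3 kb into the gene. Its other PET joined the gene to a point 407 bp before the start of Rce1. Acox2, of bile acid side chain oxidation, had 3, of which 1 ran over 15.7 kb from a point 55 bp after its start into the gene. Tns1, a focal adhesion protein, had 6, all within the gene, with 1 ending 50 bp before a start. Apoa2, a compact gene with a span of 9.82 kb, had 4 that all left it, among them 1 toward Cfap126 (96.1 kb) and 1 toward intergenic DNA (21.8 kb). Ephx2, the soluble epoxide hydrolase, had 5, of which 3 joined it to Chrna2, a nicotinic receptor subunit, at 29.7, 28.9 and 16.2 kb. This was the pair with the most short-range PETs, and their ends in Chrna2 lay within 1 kb of each other.

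**Figure D5:**
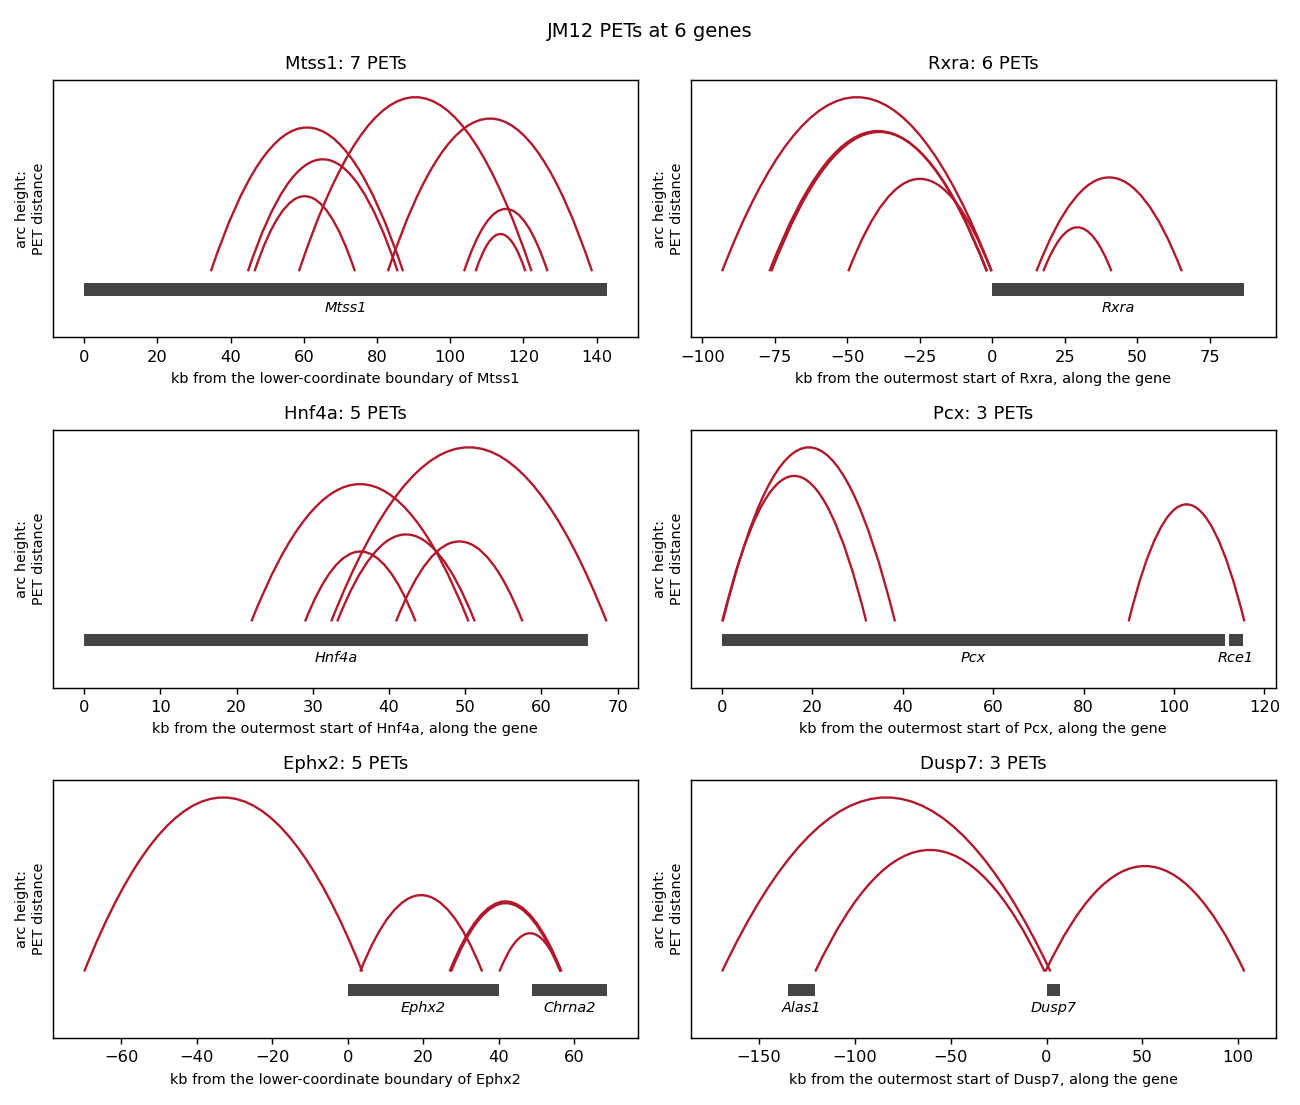
JM12 PETs at 6 genes, each arc a PET and each bar a gene, with distance in kb from a gene boundary on the horizontal axis and arc height in proportion to the PET's distance; Dusp7 shows mid-range PETs and the others short-range PETs. At Rxra 4 arcs, of which a pair nearly coincide, end just before the gene and 2 lie within it.

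Of 688 gene pairs joined by a short-range PET, 19 were joined at least 2 times, and these 19 were at 0 in JM08 and JM11. Of all 688 pairs, 3.92% were joined in JM08 and 0.291% in JM11, so nothing particular to the 19 follows. Overlapping spans repeat some PETs among the pairs. Besides Ephx2 and Chrna2 they were led by Zyx and Epha1, with PETs of 21.7 and 23.2 kb. The first began 6 bp after the Zyx start, and the second joined points 196 bp after the Zyx start and 48 bp after the Epha1 start, in or beside the promoters printed above. Ptms and the neighbouring Mlf2 were joined by PETs of 13.6 and 12.8 kb whose ends all lay within 1 kb of their starts. Sec24a and Sar1b, which both serve the COPII coat of secretory vesicles, were joined by PETs of 10.9 and 10.5 kb. Mnt was joined to the region shared by Srr and Smg6 over 92.9 and 88.7 kb. The remaining pairs were Rad54l with Pomgnt1, Csrnp1 with Xirp1, 1700001K19Rik with Hsp90aa1, Jmjd6 and Mettl23 with Srsf2 and Mfsd11, and Ache, Ufsp1 and Srrt with Trip6 and Slc12a9.

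PETs that joined genes of the same list were few. They were Itih4 with Itih1 (57.5 kb), Itih4 with Itih3 (26.1 kb) and Ahsg with Fetub (20.2 kb), all plasma protein genes in clusters. The first joined points 188 bp before the Itih4 start, inside the window printed above, and 466 bp before the Itih1 start. The PET between Ahsg and Fetub, the fetuin genes, ended 254 bp after the Fetub start.

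Start-to-start PETs, with both ends within 1 kb of the starts of different genes, numbered 85 of the 467 that joined genes (18.2%, 14.8 to 22.01), against 31 of 205 in JM08 (15.1%, 10.5 to 20.8) and 5 of 63 in JM11 (7.94%, 2.63 to 17.6). The interval of JM12 overlapped those of both other pools. Several joined genes of liver function, and these were chosen after their values were seen. Nr0b2, the bile acid repressor SHP, was joined to Gpn2 over 31.0 kb (536 and 535 bp before the starts). Khk, the enzyme that opens fructose breakdown, was joined to Ost4 over 14.3 kb, and Tef to Rangap1 over 81.8 kb. Cipc, a clock protein, was joined to Irf2bpl over 62.5 kb with ends 23 and 10 bp before the starts. Each of these rests on 1 PET.

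Of the 2093 genes touched by short-range PETs, 292 were also touched in JM08 (13.95% of the JM12 genes and 32.8% of the JM08 genes) and 74 in JM11 (3.54% and 19.7%). Of all genes, 4.07% were touched in JM08 and 1.71% in JM11. Gene pairs were shared less: 27 with JM08 (3.92% of the JM12 pairs and 8.94% of the JM08 pairs) and 2 with JM11. Most JM12 gene pairs therefore rest on a single PET in a single pool.

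Mid-range PETs had a different make-up. Of 2225, 86 lay in a single gene (3.87%), 890 joined genes (40.0%, 37.96 to 42.1), 865 joined a gene to intergenic DNA (38.9%) and 384 lay outside genes (17.3%). They touched 2559 genes (11.7%), 356 at least 2 times (1.63%) and 59 at least 3 times. Their ends lay within 1 kb of a start in 11.3%. Start-to-start PETs were 72 of the 890 that joined genes (8.09%, 6.38 to 10.1), against 23 of 311 in JM08 (7.40%, 4.75 to 10.9) and 9 of 637 in JM11 (1.41%, 0.648 to 2.67). The intervals of JM12 and JM08 overlapped here, and that of JM11 lay below both. Among these PETs, 1 joined Arntl, the clock activator BMAL1, to Psma1, a proteasome subunit, over 1069 kb with ends 3 and 21 bp after their starts.

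The mid-range pair with the most PETs was Prkce, a protein kinase C, and Epas1, which codes for the hypoxia factor HIF-2 alpha, with 3 PETs of 307, 220 and 165 kb, against 1 in JM08 and 0 in JM11. Their Epas1 ends spanned less than 2 kb. Cyp3a13, a drug-metabolising P450, was joined to Zcwpw1 and the overlapping Mepce by 2 PETs of 134 and 137 kb, of which the first joined points 58 bp after the Zcwpw1 start and 99 bp before the Cyp3a13 start. Git1 and Nufip2 were joined by PETs of 200.5 and 200.6 kb whose ends differed by over 10 kb on both sides. Tcf7l2, a Wnt pathway factor, was joined 2 times to Afap1l2, and the other pairs with 2 PETs were Zc3h4 with Arhgap35, Rtkn2 with Ank3, Numb with Heatr4, Erc2 with Cacna2d3 and Lama3 with Osbpl1a. The pairs with 2 PETs were at 0 in the other pools, as were most mid-range pairs: 0.805% of all JM12 pairs were joined in JM08 and 1.07% in JM11.

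Single genes with mid-range PETs were led by long genes, with 5 each for Lrrk1, Prkce, Rbfox1 and Tcf7l2. The genes with at least 3 had a median span of 358 kb and a median relative density of 1.29, under that of all genes. Among them, the compact Dusp7, a MAP kinase phosphatase, had 3. The first joined a point 47 bp inside the Alas1 start, in the promoter window printed above, to a point 1070 bp before the Dusp7 start, over 120 kb. Another reached Ppm1m (171 kb), 70 bp before its start, and the third Parp3 (104 kb). Klf10 had 3 to intergenic DNA, at 172, 402 and 169 kb, and Yy1 had 3, of which 2 began 612 and 291 bp before its start. Of the long genes of the nervous system 10 of 19 held a mid-range PET in JM12 (52.6%, against 11.7% of all genes), 10 in JM08 and 18 in JM11. Of the 1118 pairs joined by mid-range PETs, 10 were joined at least 2 times, 9 were also joined in JM08 and 12 in JM11.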

How the data were processed

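The deposited table lists PETs singly, with columns for experiment, linkers, positions of both ends and distance, so its values are positions and labels and not counts per sample. Bowtie2 and mm10 are named per the submitters' processing notes, and filters and versions are not stated. All columns pool libraries, and the meaning of the linkers is not given, so neither library nor time point could be separated and no linker group was compared. No replicate spread exists, and intervals (exact Poisson, Clopper-Pearson, conditional binomial) cover counting error only.

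PETs with a mitochondrial end were set aside (2239 in JM12), and near-copies within 10 bp at both ends were counted once, which removed 886 in JM12, 9369 in JM08 and 29 in JM11. JM12 ends were 1673341 on autosomes and X. Genes were protein-coding RefSeq genes of GRCm38.p6 with 2.5 kb either side. Genes needed 5 expected ends, ratios at least 30 ends in both pools together. Gene starts and promoters are those of the RefSeq promoter table, which lacks some genes. C5 and 1 other listed symbol were not found. Results for some genes within the naming rule are not reported here. Members and gene lists were chosen with earlier results of these data known. Named genes were the 20 densest (of a pair sharing over 50% of the shorter span, the gene with more ends stands), the 10 with most ends, the 8 highest and lowest ratios against each pool, the 4 highest and the lowest of each list, genes with at least 3 short-range PETs (the 20 with most, of which those with exactly 3 were chosen after their values were seen), the 10 with most mid-range PETs, pairs with at least 2, and PETs within a list. Other genes named at single PETs, with 3 mid-range PETs, or inside lists were chosen after their values were seen. The counting steps were tested on simulated data. Python 3.11.15 with numpy 2.4.6, pandas 2.3.3, scipy 1.17.1, numba 0.67.0 and matplotlib 3.10.9 was used. Alternatives covered the collapse, flank, minimum, reference, end class, linker subset, distance bounds and windows.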

Additional observations from a re-analysis of the deposited data

Results flagged for a closer look

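JM12 PETs that touch mitochondrial DNA, which the gene counts leave out, numbered 2239 (0.266% of the JM12 rows), of which 286 had both ends there. JM08 had 12 such PETs and JM11 had 14. They are listed because a signal lies outside the ends that were compared, and the difference between pools was not tested. JM12 ends on the Y chromosome, also outside the gene comparisons, numbered 829, against 737 in JM08 and 871 in JM11.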

How the results depend on the processing

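No paired analysis was possible because the columns carry no library or replicate number, and for the same reason leaving out each replicate was not run. Of JM12 PETs, 15.3% lay within 8 kb and 79.7% joined chromosomes when positions had to be unshared. Genes over 2-fold numbered 2493 without a flank, 2322 with 10 expected ends, 6756 with PETs within 8 kb only and 1889 against the median gene. Genes at or under 0.5 numbered 2667 with a 5 kb flank, 2626 without a minimum, 1005 with 10 expected ends and 4377 with PETs within 8 kb only. Against JM08, higher genes numbered 276 with PETs within 8 kb only, 315 against the median gene, 1192 with a minimum of 15 ends and 181 with 60. Lower genes numbered 733 with PETs between chromosomes only, 710 within 8 kb only, 905 with the ATGT linker and 810 with a minimum of 60. Against JM11, higher genes numbered 1420 without a flank, 202 within 8 kb only, 1012 against the median gene, 648 with ATGT, 1047 with a minimum of 60 and 805 centred. Lower genes numbered 174 within 8 kb only, 292 against the median gene, 62 with ATGT, 149 with TAAG, 328 with a minimum of 15, 22 with 60 and 400 centred.

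Short-range PETs numbered 935 with ATGT, 1029 with TAAG and 3108 from 4 kb. The share within a gene was 29.8% without a flank, 43.3% with 5 kb, 46.3% from 4 kb and 36.1% from 10 kb. Between genes it was 16.2% without a flank and 16.2% from 4 kb. From gene to intergenic DNA it was 32.0% without a flank, 19.6% with 5 kb and 17.6% from 4 kb. Outside genes it was 21.996% without a flank and 19.9% from 4 kb. Genes with at least 2 numbered 78 with ATGT, 98 with TAAG and 502 from 4 kb, and pairs with at least 2 numbered 5 without a flank, 1 with ATGT and 10 with TAAG. Mid-range PETs numbered 1071 with ATGT and 1154 with TAAG. Their share between genes was 29.9% without a flank and 43.7% with 5 kb. To intergenic DNA it was 45.2% without a flank, and outside genes 21.3% without a flank and 15.4% with 5 kb. Genes with at least 2 numbered 94 with ATGT and 114 with TAAG, and pairs 5 without a flank, 2 with ATGT and 1 with TAAG. The density at starts was 4.83 within 500 bp and 2.24 within 2.5 kb, and at gene ends 1.18 within 500 bp. Smaller subsets and other spans give other counts by construction; for the rest the cause was not tested. For single genes, relative density under these settings was run only for the densest and for the 4 highest and the lowest of each list. None of these at least 2-fold over the mean, or at or under 0.5 of it, crossed the mean under a setting run. Of those nearer to the mean (0.683 to 1.56), 18 did, such as Otc at 1.69 with PETs within 8 kb only and Rps20 at 0.356 with ATGT. So did 1 list median, that of other tissue markers, at 0.991 against the median gene. Of the list medians 246 values held and 26 moved, of the named genes 1129 and 262, and of the named ratios 479 and 17.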
